A study of Homo sapiens with 6 samples.

Results

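The 10 genes described here belong to the Notch pathway: the receptors *NOTCH1*, *NOTCH2* and *NOTCH3*, the ligands *JAG1* and *JAG2*, the nuclear coactivators *MAML1* and *MAML3*, and the target genes *HES1*, *HES4* and *NRARP*. They were taken by gene name from the 57905 genes of the deposited tables, and all 10 had enough counts to be tested, as did 14178 genes in all. They were measured in RT4, an established human cell line from a papillary bladder tumour, of wild-type genotype by its label. Cells were transfected for 48 h with 100 pmol of either a scramble control siRNA (Scramble, 3 libraries) or an siRNA against *LEADR*, a spliced long non-coding RNA of the *MIR205HG* gene (LEADR-KD, 3 libraries), and poly(A) RNA was sequenced. The comparison asks which transcripts change when *LEADR* is depleted. Each group rests on 1 siRNA in 1 cell line, so an effect of losing *LEADR* and an effect of this siRNA on other transcripts cannot be told apart by the design. Whether the 3 libraries of a group came from separate cultures is not stated by the labels, so p-values measure the spread between these libraries, which may be partly technical.

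Notch receptors are cell-surface proteins that bind ligands of the Jagged and Delta families on a neighbouring cell. Ligand binding exposes the receptor to cleavage by an ADAM protease and then by gamma-secretase, which frees the intracellular domain. This domain enters the nucleus, joins the DNA-binding protein RBPJ and a Mastermind-like coactivator, and switches on targets such as the HES and HEY repressors and *NRARP*, whose product feeds back on the pathway. In urothelium, the lining of the bladder, Notch signalling is known for a part in differentiation. Only RNA was measured in this experiment, so receptor cleavage and protein levels are outside the data.

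In *LEADR*-depleted cells the RNA of 2 receptors and both coactivators fell while that of 2 targets rose. Levels of one gene across libraries are given as TMM-CPM, counts scaled to the library's total after a trimmed-mean correction (TMM) for its composition. *NOTCH2* fell to 0.199 of its level in Scramble, *NOTCH1* to 0.567, *MAML3* to 0.630 and *MAML1* to 0.724. *HES4* rose to 2.33 times and *NRARP* to 2.0 times the Scramble level. *NOTCH3*, *JAG1*, *JAG2* and *HES1* did not pass the test. Of the 10 genes, 4 were thus lower and 2 higher at an adjusted p under 0.05 (edgeR quasi-likelihood test, Benjamini-Hochberg over all genes tested), where 12.1% of all tested genes were lower and 12.2% higher. Without LEADR-KD 2 the number of genes called lower among all tested fell from 1719 to 1142, and the number higher among the 10 was 1 when any one of the 4 libraries given with *NRARP* was left out. All 3 LEADR-KD libraries lay below all 3 Scramble libraries for 5 of the 10 genes and above them for 2, against 19.9% and 19.9% of all tested genes. The median log2 fold change was -0.19 over the 10 genes and -0.01 over all tested genes.

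**Figure D1:**
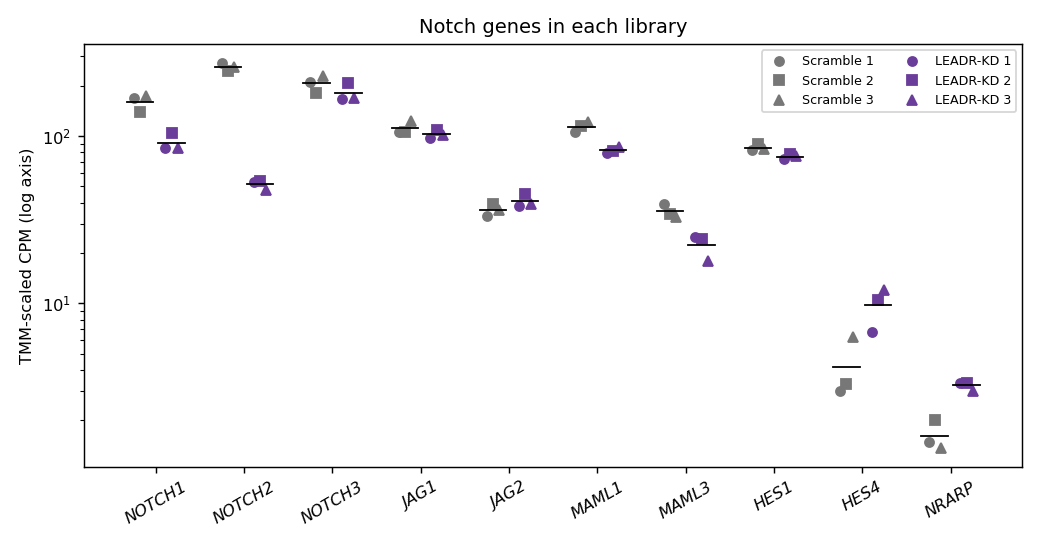
Level of each of the 10 Notch genes in each library (y axis, TMM-scaled CPM, log axis), grey for Scramble and purple for LEADR-KD, and a black bar at each group's mean (n = 3). The groups are furthest apart for *NOTCH2*, at 244 to 273 against 47.6 to 53.8, and *NRARP* is the lowest of the 10 in both groups.

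The libraries held 15706033 to 18960822 counts each, and mitochondrial genes took 3.06% to 11.9% of them in Scramble and 4.79% to 10.8% in LEADR-KD, highest in the library numbered 1 of each group. *MIR205HG*, the gene of the siRNA target, had 511, 337 and 346 counts in Scramble and 113, 211 and 101 in LEADR-KD, and its log2 fold change was -1.47 with a standard error of 0.26 (adjusted p = 0.0018 from edgeR). The 16 epithelial and urothelial markers were summed in FPKM (fragments per kilobase of gene length, scaled by a constant per library). Their sum was 2114 to 2365 FPKM in Scramble and 2510 to 2730 FPKM in LEADR-KD, without overlap, although *KRT20* and *KRT5*, subset markers, were near 0. Most of this sum came from *KRT19*, *KRT7* and *KRT8* (means of 836, 444 and 334 FPKM in Scramble). These did not pass (adjusted p = 0.431, 0.700 and 0.0804 from edgeR). Of the 14 markers tested, 3 were higher and 1 was lower, beside 12.2% and 12.1% of all tested genes. Higher were the cadherin gene *CDH1* (log2 fold change 1.11), the uroplakin gene *UPK1B* (0.76) and *KRT18* (0.39), and lower was *FOXA1* (-0.30), all by edgeR. *KRT18* did not pass when Scramble 2 or 3 or LEADR-KD 1 or 3 was left out (adjusted p of up to 0.105 from edgeR), nor *FOXA1* without Scramble 2, LEADR-KD 1 or LEADR-KD 3 (up to 0.0970). The fibroblast markers (8 genes) summed to 3.78 to 4.61 FPKM against 2.60 to 3.74 FPKM, again without overlap. Nearly all of this came from *COL3A1*, with means of 3.96 FPKM in Scramble and 2.90 FPKM in LEADR-KD (adjusted p = 0.0572 from edgeR). *COL1A2*, *PDGFRB*, *THY1* and *DCN* had 0 counts in every library, *VIM* had at most 3, and neither of the 2 tested was called. Endothelial markers (5 genes) summed to 0.809 to 1.09 FPKM against 0.355 to 0.510 FPKM, with *KDR* and *TEK* at 0 counts in every library. *VWF*, the 1 tested, fell (-1.16, adjusted p = 0.00553 from edgeR). The leukocyte markers (6 genes) overlapped, at 0.0309 to 0.132 FPKM against 0 to 0.232 FPKM. In bulk RNA fewer cells of a type and less RNA per cell cannot be told apart, and the part of these shifts in the Notch values was not tested.

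The LEADR-specific siRNA is shown first, because part of it can be read against the transcripts of the Notch genes. A small RNA loaded into an Argonaute protein as the guide pairs with targets mainly through its bases 2 to 8, the seed, here in capitals.
siRNA LEADR: aACUGGGUgcuuuauauagga
The letters that pair with this seed are ACCCAGT in a transcript written as DNA, and an 8-base match is that run followed by A. The *NOTCH2* 3′ untranslated region (canonical isoform, 3753 bases, GENCODE annotation of GRCh37) holds 3 such runs, all on the minus strand, and 1 of its 2 annotated isoforms holds the 8-base match. They are shown with the matched bases in capitals because *NOTCH2* is the one of the 10 genes with a match of 7 bases or more.
NOTCH2 chr1:120456701-120456721: cttagcccaagggACCCAGTg
NOTCH2 chr1:120456585-120456605: gtgttactggtatACCCAGTA
NOTCH2 chr1:120454827-120454847: gtttgtatgagaaACCCAGTA
The first holds the 7-base match and the other two the 8-base match ACCCAGTA, whose last A faces base 1 of the siRNA and does not pair with it. Along all 21 bases of the siRNA, 10, 9 and 12 could pair with these stretches. *NOTCH3* (2 runs) and *MAML1* (1 run) hold no more than the 6-base run CCCAGT, which pairs with bases 2 to 7, and the 3′ untranslated regions of the other 7 genes hold none of these runs. None of the 10 holds ATATAGG, the match to the seed of the complementary strand.

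Across the 12057 tested genes with an annotated 3′ untranslated region, 292 (2.42%) hold the 8-base match. Of these 36.3% were lower and 6.85% higher in LEADR-KD, with a median log2 fold change of -0.24. Of the 7468 genes with none of the runs 8.65% were lower and 15.5% higher, with a median of 0.04. *NOTCH2* therefore belongs to a class of genes that was more often lower, whereas *NOTCH1* and *MAML3* fell without any of these runs. These counts are a description, since a longer region has more room for a match. A match is no proof of binding, and which siRNA strand was loaded was not measured. The part of the matches in the fall of *NOTCH2* was not tested.

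*NOTCH2* (ENSG00000134250, chromosome 1, 120454176 to 120612240 of GRCh37, minus strand) encodes a receptor and changed more than any other of the 10 genes. In the order of the library numbers, here and below, its raw counts were 4632, 4760 and 4362 with the scramble siRNA against 849, 978 and 840 with the *LEADR* siRNA. In TMM-CPM these were 273, 244 and 260 against 53.2, 53.8 and 47.6. The groups lay far apart, and within each group the libraries were close. The mean went from 259 ± 14 to 51.5 ± 3.4 TMM-CPM (SD, n = 3), a log2 fold change of -2.33 (standard error 0.09, 95% interval -2.52 to -2.14, adjusted p = 6.93e-08 from edgeR). *NOTCH2NL* (ENSG00000213240), a partial copy of *NOTCH2* on the same chromosome that can share reads with it, had 175, 118 and 111 counts against 158, 124 and 105 and did not pass (log2 fold change -0.02 with a standard error of 0.25, adjusted p = 0.965 from edgeR).

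*NOTCH1* (ENSG00000148400, chromosome 9, 139388896 to 139440314, minus strand), a receptor best known from T-cell development, stood at 170, 138 and 175 TMM-CPM in Scramble and 85.0, 104 and 84.7 in LEADR-KD. The highest LEADR-KD library, LEADR-KD 2, stayed below the lowest Scramble library, Scramble 2. The mean fell from 161 ± 20 to 91.3 ± 11 TMM-CPM (SD, n = 3; log2 fold change -0.82, standard error 0.11, 95% interval -1.06 to -0.57, adjusted p = 0.000367 from edgeR).

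*NOTCH3* (ENSG00000074181, chromosome 19, 15270444 to 15311792, minus strand), the receptor studied most in vascular smooth muscle, was at 211, 180 and 230 TMM-CPM in Scramble and 167, 207 and 168 in LEADR-KD. The groups overlapped, since LEADR-KD 2 lay above Scramble 2. The log2 fold change was -0.20 (standard error 0.11, 95% interval -0.44 to 0.05, adjusted p = 0.234 from edgeR), so a fall of that size or no change could not be separated from the spread between libraries. Scramble 2 was the lowest Scramble library and LEADR-KD 2 the highest LEADR-KD library for both *NOTCH1* and *NOTCH3*.

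The makeup of the receptor RNA can be given per length in FPKM. In Scramble the 3 receptors summed to 56.9, 48.6 and 58.6 FPKM and in LEADR-KD to 30.8, 37.0 and 30.4 FPKM. The groups did not overlap, and the mean sum went from 54.7 ± 5.32 to 32.8 ± 3.69 FPKM (SD, n = 3). The share of *NOTCH2* in that sum was 28.3%, 29.7% and 26.2% in Scramble and 10.3%, 8.60% and 9.28% in LEADR-KD. *NOTCH3* made up 42.5% ± 1.30 (SD, n = 3) in Scramble and 62.5% ± 0.652 in LEADR-KD, so that it was the most abundant receptor RNA in both groups and held most of the receptor RNA in LEADR-KD. *NOTCH1* stayed close to the same share, at 29.4% ± 0.745 and 28.1% ± 0.199 (SD, n = 3), while its own level fell. A share rises when the other receptors fall, and for *NOTCH3* the level itself did not pass the test. *NOTCH4*, the remaining human receptor gene, had at most 3 counts in a library and was not tested.

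**Figure D2:**
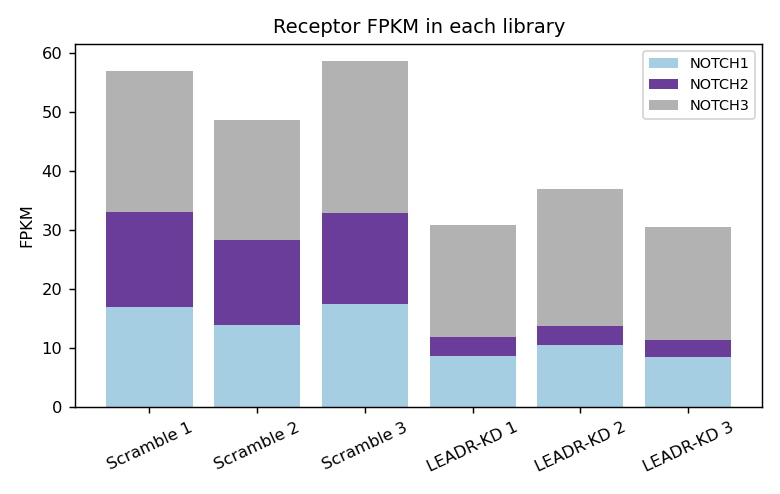
FPKM of the 3 receptor genes stacked for each library (y axis from 0, FPKM), with *NOTCH1* in light blue, *NOTCH2* in purple and *NOTCH3* in grey. The sums are 48.6 to 58.6 FPKM in the Scramble libraries and 30.4 to 37.0 FPKM in the LEADR-KD libraries, and the *NOTCH2* segment is the one that shrinks most.

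The ligand genes did not pass the test. *JAG1* (ENSG00000101384, chromosome 20, 10618332 to 10654694, minus strand) encodes Jagged 1 and was at 106, 106 and 123 TMM-CPM in Scramble and 97.4, 108 and 102 in LEADR-KD. These ranges overlapped (log2 fold change -0.12, standard error 0.09, 95% interval -0.32 to 0.07, adjusted p = 0.354 from edgeR). *JAG2* (ENSG00000184916, chromosome 14, 105607318 to 105635161, minus strand), which encodes Jagged 2, was at 33.4, 39.5 and 36.1 TMM-CPM in Scramble and 38.3, 45.2 and 39.5 in LEADR-KD. Its ranges also overlapped (log2 fold change 0.17, standard error 0.11, 95% interval -0.06 to 0.41, adjusted p = 0.281 from edgeR). The intervals leave room for a fall of *JAG1* down to -0.32 and a rise of *JAG2* up to 0.41 on the log2 scale.

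Both coactivator genes fell. *MAML1* (ENSG00000161021, chromosome 5, 179159851 to 179223512, plus strand), whose product bridges the Notch and RBPJ complex to histone acetyltransferases, was at 105, 114 and 122 TMM-CPM in Scramble and 79.1, 82.0 and 85.9 in LEADR-KD. The groups did not overlap, and the mean fell from 114 ± 8.3 to 82.3 ± 3.4 TMM-CPM (SD, n = 3; log2 fold change -0.47, standard error 0.09, 95% interval -0.65 to -0.28, adjusted p = 0.00228 from edgeR). *MAML3* (ENSG00000196782, chromosome 4, 140637907 to 141075338, minus strand), a coactivator of the same family, was at 39.5, 34.2 and 33.0 TMM-CPM in Scramble and 25.1, 24.4 and 17.8 in LEADR-KD. Every LEADR-KD library was below every Scramble library, with LEADR-KD 3 lowest, and the mean fell from 35.6 ± 3.4 to 22.4 ± 4.0 TMM-CPM (SD, n = 3; log2 fold change -0.67, standard error 0.14, 95% interval -0.98 to -0.36, adjusted p = 0.00557 from edgeR). *MAML3* overlaps *MGST2* on the opposite strand, which had a mean count of 435, and no source used here gives the strand setting of the counting, so some reads of one may be counted for the other. *MAML2*, the third gene of the family, had a log2 fold change of -0.20 (adjusted p = 0.224 from edgeR).

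**Figure D3:**
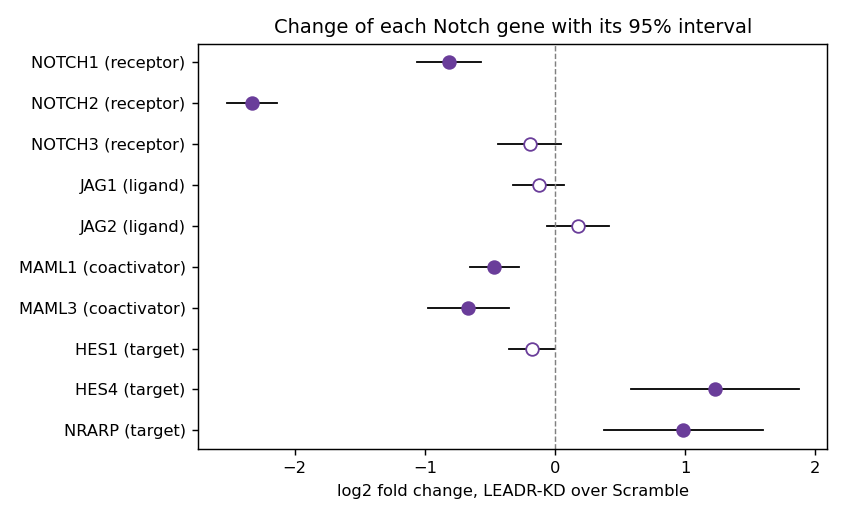
Log2 fold change of each Notch gene, LEADR-KD over Scramble (x axis), with its 95% interval as a line and the role in brackets, filled where the adjusted p is under 0.05 (edgeR). The 4 filled points left of 0 are *NOTCH1*, *NOTCH2*, *MAML1* and *MAML3*, and the 2 right of 0 are *HES4* and *NRARP*.

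The promoters of the targets are shown because Notch acts on its targets through RBPJ at DNA. Each run is 250 bases before to 50 after the start in RefSeq on GRCh38.p14, a later build than that of the counts, and reads 5′ to 3′ on the gene's strand. All 10 genes matched this table. Capitals mark GTGGGAA, a core of the known RBPJ motif, searched on both strands.
HES1 chr3:194135898-194136197, plus strand: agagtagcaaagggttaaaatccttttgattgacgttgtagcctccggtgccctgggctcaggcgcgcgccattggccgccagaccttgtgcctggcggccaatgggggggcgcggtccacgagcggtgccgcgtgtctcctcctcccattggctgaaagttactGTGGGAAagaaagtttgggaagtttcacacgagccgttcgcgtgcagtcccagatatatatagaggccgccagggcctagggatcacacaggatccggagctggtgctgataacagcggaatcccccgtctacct
HES4 chr1:1000048-1000347, minus strand: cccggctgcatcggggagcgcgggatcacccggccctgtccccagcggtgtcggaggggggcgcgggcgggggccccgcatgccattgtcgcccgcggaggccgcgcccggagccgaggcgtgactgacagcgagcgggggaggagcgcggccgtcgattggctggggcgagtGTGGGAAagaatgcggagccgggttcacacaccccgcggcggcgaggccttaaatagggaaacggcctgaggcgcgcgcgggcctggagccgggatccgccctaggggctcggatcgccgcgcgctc
NRARP chr9:137302222-137302521, minus strand: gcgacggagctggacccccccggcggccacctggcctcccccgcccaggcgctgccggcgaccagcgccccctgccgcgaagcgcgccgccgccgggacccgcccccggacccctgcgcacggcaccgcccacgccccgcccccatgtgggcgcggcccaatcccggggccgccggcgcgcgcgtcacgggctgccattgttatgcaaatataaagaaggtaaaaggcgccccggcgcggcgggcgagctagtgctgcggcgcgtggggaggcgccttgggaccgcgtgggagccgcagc
The motif starts 85 bases before the start of *HES1* and 77 bases before that of *HES4*, and it is in neither strand of the window of *NRARP* or of the other 7 genes. It is held by 2194 (6.25%) of the 35116 promoter windows given. The windows of *HES1* and *HES4* share a longer run around it, TGTGGGAAAGAA. Searched on the gene's strand only, unlike the motif, this run is held by 5 windows of all those given. Among the 3 targets, *HES1* holds the motif and did not pass, *HES4* holds it and rose, and *NRARP* rose without it in its window. Other forms of the motif and sequence outside the windows were not searched. A match to GTGGGAA is a description of the letters and no measure of binding, and the part of the motif in these changes was not tested.

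*HES1* (ENSG00000114315, chromosome 3, 193853934 to 193856521 of GRCh37, plus strand) encodes the repressor regarded as the standard Notch target. It was at 82.7, 90.1 and 83.2 TMM-CPM in Scramble and 72.9, 77.6 and 75.8 in LEADR-KD. The groups did not overlap, but the distance was small, from a mean of 85.3 ± 4.1 to one of 75.4 ± 2.4 TMM-CPM (SD, n = 3). With a log2 fold change of -0.18 and a standard error of 0.08, it did not pass (adjusted p = 0.139 from edgeR).

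*HES4* (ENSG00000188290, chromosome 1, 934342 to 935552, minus strand) encodes a repressor of the same family and was counted 51, 64 and 105 times in Scramble and 108, 190 and 213 times in LEADR-KD. In TMM-CPM the libraries were at 3.0, 3.28 and 6.27 against 6.77, 10.5 and 12.1. The groups did not overlap, but the highest Scramble library, Scramble 3, came close to the lowest LEADR-KD library, LEADR-KD 1. The mean rose from 4.19 ± 1.8 to 9.76 ± 2.7 TMM-CPM (SD, n = 3; log2 fold change 1.23, standard error 0.30, 95% interval 0.58 to 1.87, adjusted p = 0.0109 from edgeR). The log2 fold change lay between 1.05 and 1.63 with each library left out in turn, at an adjusted p of 0.00133 to 0.0489 (edgeR). The call was thus kept, but only just without Scramble 2 (0.0489), LEADR-KD 2 (0.0478) or LEADR-KD 3 (0.0462).

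*NRARP* (ENSG00000198435, chromosome 9, 140194083 to 140196703, minus strand) encodes a small ankyrin repeat protein that dampens Notch signalling. It had 25, 39 and 23 counts in Scramble and 53, 61 and 53 in LEADR-KD, or 1.47, 2.0 and 1.37 against 3.32, 3.36 and 3.0 TMM-CPM. Every LEADR-KD library was above every Scramble library, and the mean rose from 1.62 ± 0.34 to 3.23 ± 0.19 TMM-CPM (SD, n = 3; log2 fold change 0.99, standard error 0.28, 95% interval 0.38 to 1.60, adjusted p = 0.0237 from edgeR). These are the lowest counts of the 10 genes, and the call did not hold without Scramble 1 (adjusted p = 0.0595 from edgeR), Scramble 3 (0.0864), LEADR-KD 1 (0.0537) or LEADR-KD 2 (0.0755).

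Set against each other per length, the 10 genes differed widely in level. In Scramble, *HES1* was the most abundant at 41.0 ± 2.05 FPKM (SD, n = 3), followed by *NOTCH3* at 23.3 ± 2.77 FPKM. Then came *JAG1* (17.6 FPKM), *NOTCH1* (16.1 FPKM) and *NOTCH2* (15.3 FPKM), of which neighbours overlapped, then *MAML1* (10.5 FPKM), and then *JAG2* (5.62 FPKM), *MAML3* (5.01 FPKM) and *HES4* (3.71 FPKM), which also overlapped in turn. *NRARP* was last at 0.611 FPKM. In LEADR-KD *HES1* (36.5 FPKM), *NOTCH3* (20.5 FPKM) and *JAG1* (16.2 FPKM) kept the first 3 places. *NOTCH1* (9.22 FPKM), *HES4* (8.70 FPKM) and *MAML1* (7.68 FPKM) followed with overlapping neighbours, then *JAG2* (6.39 FPKM). *NOTCH2* moved from place 5 to place 9, at 3.06 FPKM, beside *MAML3* at 3.18 FPKM, whose libraries overlapped with it, and *NRARP* stayed last at 1.23 FPKM. The rise of *HES4* and *NRARP* was therefore a rise of lowly expressed targets, and *HES1*, the target with the highest level, did not pass the test.

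The other genes of the pathway place these values. A list of 75 Notch pathway genes, written from general knowledge, had 65 tested members, of which 10 were lower and 15 higher (edgeR). Without the 10 genes above, 6 of 55 (10.9%) were lower and 13 (23.6%) higher, beside 12.1% and 12.2% of all tested genes, with a median log2 fold change of -0.01. Without Scramble 2 the number higher was 8 of 55 (14.5%), and it was 9 to 13 with each of the other libraries left out. No other target passed: *HES2* (-0.68), *HES6* (-0.58), *HEYL* (-0.52) and *HEY1* (0.31) had adjusted p of 0.245 to 0.555 (edgeR), and *HES5*, *HES7* and *HEY2* had too few counts to be tested. *RBPJ*, the DNA-binding factor of the complex, had a log2 fold change of -0.21 (adjusted p = 0.328 from edgeR).

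Changes in cleavage genes went mostly upwards. Of 9 tested, 5 rose and 1 fell. Among those that rose were *APH1B* (log2 fold change 1.06) and *PSEN2* (0.46) of gamma-secretase. The ADAM protease gene *ADAM17* (0.64) and *FURIN* (0.46), whose product cuts the receptor precursor, also rose. *NCSTN* (-0.37), a further gamma-secretase subunit gene, fell. *ADAM10* (0.06), the other ADAM protease gene listed, did not pass (adjusted p = 0.680 from edgeR). *APH1B* was at 13.2, 11.5 and 13.4 TMM-CPM in Scramble and 30.1, 24.9 and 24.9 in LEADR-KD, with no overlap (adjusted p = 0.000171 from edgeR). *PSEN2* and *NCSTN* did not pass when any one library other than Scramble 1 was left out (adjusted p = 0.0593 to 0.145 and 0.0582 to 0.158 from edgeR).

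The other calls were spread over roles. Among genes of receptor turnover, the ubiquitin ligase gene *DTX3L* (0.73) and *NUMB* (0.47), whose product is an inhibitor of Notch, rose, and *FBXW7* (-0.70), which encodes the ubiquitin ligase for the intracellular domain, fell. The ligand ubiquitin ligase gene *MIB1* (0.45) rose and the glucosyltransferase gene *POGLUT1* (-0.46) fell. Of the factors that act with RBPJ, the kinase and cyclin genes *CDK8* (0.47) and *CCNC* (0.42) rose, and so did 1 more gene, *KAT2B* (0.39), an acetyltransferase gene outside the naming rule and chosen after its values were seen. *POGLUT1* did not pass without Scramble 1 (adjusted p = 0.0657 from edgeR) or LEADR-KD 1 (0.0553), *CCNC* without Scramble 2 (0.0537), Scramble 3 (0.0681) or LEADR-KD 1 (0.0588), and *KAT2B* without Scramble 2 (0.0591) or LEADR-KD 2 (0.0801).

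Corepressors, which keep RBPJ targets silent when no Notch domain is bound, moved in both directions. *TLE1* (-0.46) and *TLE3* (-0.24) fell, and *TLE2* (0.50) rose, as did *KDM5A* (0.34), which is outside the naming rule and was chosen after its values were seen. *TLE3* did not pass with any single library left out (adjusted p = 0.0775 to 0.101 from edgeR), and *TLE2* and *KDM5A* did not pass when Scramble 2 or 3 or LEADR-KD 1 or 2 was left out (0.0553 to 0.0855 and 0.102 to 0.159). The 3′ untranslated regions of *AAK1* and *CTBP2* hold the 8-base match to the siRNA seed, and their log2 fold changes of -0.54 (adjusted p = 0.0520 from edgeR) and 0.31 (0.0530) did not pass.

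**Figure D4:**
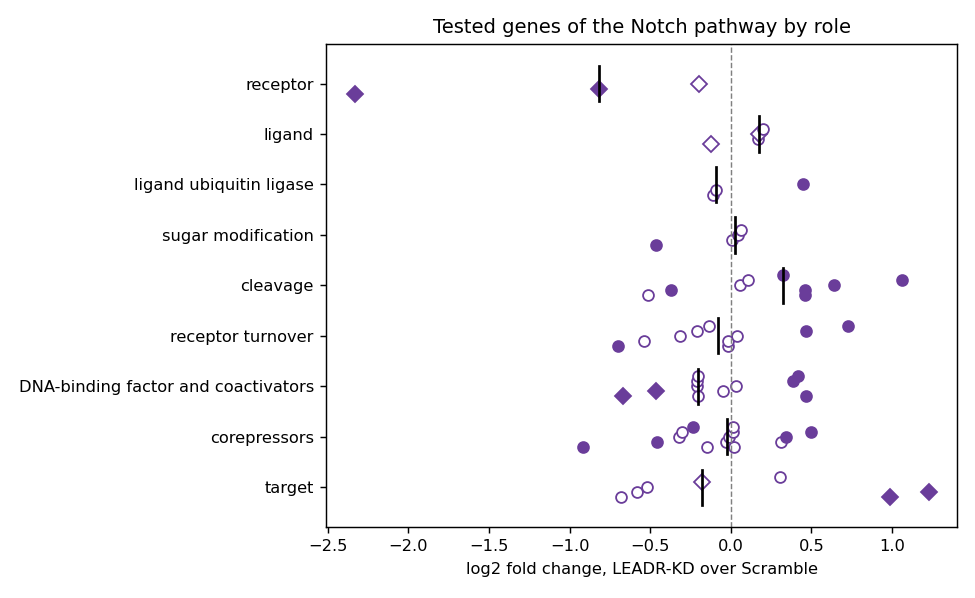
Log2 fold change (x axis, LEADR-KD over Scramble) of each of the 65 tested Notch pathway genes, in rows by role, with diamonds for the 10 genes described in full, circles for the others, filled points for an adjusted p under 0.05 (edgeR) and a black bar at each role's median. The receptor row lies left of 0, 5 of 9 cleavage genes are filled right of 0, and the 2 filled points of the target row, *HES4* and *NRARP*, are right of 0.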

How the data were processed

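Poly(A) RNA of RT4 cells was measured in 3 Scramble and 3 LEADR-KD libraries, grouped by the submitters' labels. The authors deposited raw read counts per gene and FPKM values on hg19 (GRCh37). The submitters' processing notes name HISAT2 2.0.5, featureCounts 1.5.0-p3 and DESeq2 1.20.0, whereas the methods of the study name Salmon. The library kit marks strand, and the counting's strand option was not given in the sources used here. The FPKM values deposited by the authors are counts over gene length and a constant per library. A further table of the authors' own comparison (fold changes and p-values) was not used.

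Of 57905 genes, 25957 had any count and 14178 passed filterByExpr (minimum count 10). The raw counts deposited were TMM-scaled and tested by edgeR 4.0.16 (quasi-likelihood, R 4.3.3) with no covariate, and p-values were adjusted by the Benjamini-Hochberg method over all genes tested. A gene was called at an adjusted p under 0.05. The standard error is the log2 fold change divided by the square root of F. The biological coefficient of variation was 12.6%, and the steps were tested on simulated counts. For *JAG1*, which has a second row, the protein-coding row was taken by identifier. FPKM served for levels between genes, and 3′ untranslated regions were those of 1 canonical isoform per gene.

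Named are all 10 genes, up to 10 other pathway genes per direction with the largest called change, the untested genes, *MIR205HG* and *NOTCH2NL*, except for some genes not reported here. The genes and lists were chosen with earlier results of these data known. The alternatives were DESeq2 1.42.0, other scalings and filters, limma 3.58.1 on log2(FPKM + 1) or log2(FPKM + 0.1), mitochondrial genes left out, each library left out, both libraries numbered 1 left out, and a replicate block.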

Additional observations from a re-analysis of the deposited data

How the results depend on the processing

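*NOTCH1*, *NOTCH2* and *MAML1* kept their calls in all 17 alternatives. *MAML3* and *HES4* lost theirs only when limma was fitted to log2(FPKM + 1) with no low-value filter (adjusted p = 0.0685 and 0.0938), and *NRARP* lost its call in 6 of 16, among them without both libraries numbered 1 (0.0857) and by that limma fit (0.0645). No called gene named here changed direction. The number of the 10 genes called higher was 1 with the stricter filter on low counts, which leaves *NRARP* untested, 1 to 2 with each library left out, 1 without both libraries numbered 1 and 0 by limma without a filter, and that fit called 5 lower and 6 higher in the pathway list and 854 lower and 915 higher among all genes. Over all genes, leaving out each library gave 1142 (without LEADR-KD 2) to 1472 lower, and scaling by library totals alone gave 1085 higher. The log2 fold change of *NOTCH2NL*, which did not pass, ranged from -0.26 to 0.25 with each library left out, with values above 0 without Scramble 1 (0.25), LEADR-KD 2 (0.05) and LEADR-KD 3 (0.13), and was 0.0064 without both libraries numbered 1. The causes of these shifts were not tested.

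Whether the replicate numbers pair the samples is not settled by these values. The deviations of same-numbered libraries correlated at 0.228, 0.00058 and 0.266. Differently numbered libraries correlated at -0.297 to 0.0755, and Scramble 2 correlated best with LEADR-KD 1, at 0.0332. With the replicate number as a block, 2365 genes were lower and 2489 higher, against 1719 and 1736 without it. Depth limits *NRARP* and *HES4* most, at 23 to 61 and 51 to 213 counts per library.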

Other observations

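Among the pathway genes with too few counts to be tested, the ligand gene *DLL3* had 10, 15 and 13 counts in Scramble and 1, 1 and 0 in LEADR-KD, and with no filter on low counts its adjusted p was 0.00194 (edgeR). *DLL4*, another ligand gene, had 9, 3 and 3 counts against 2, 8 and 20. *NEURL1*, *MFNG*, *DTX1* and *DLK1* had at most 5 counts in a library.

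Of the 20 nearest tested protein-coding neighbours of the 10 genes, 1 was lower and 5 were higher (edgeR), beside 12.1% and 12.2% of all tested genes. These were chosen after their values were seen. *SETD7*, 110054 bases from *MAML3*, had a log2 fold change of 1.95 (adjusted p = 1.83e-06 from edgeR). *OPA1* and *ATP13A3*, on either side of *HES1*, were at 0.37 and 0.57. *ISG15*, an interferon-stimulated gene 13251 bases from *HES4*, did not pass (log2 fold change 0.63 with a standard error of 0.38, adjusted p = 0.265 from edgeR). A second row named *JAG1*, a processed transcript (ENSG00000270408), had 6, 3 and 2 counts against 1, 1 and 2 and was not tested.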
